A study of Mus musculus with 2 samples.

Results

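Memory-like CD8 T cells made up 149 of the 1879 CD8 T cells found in mouse blood mononuclear cells, among 9415 barcodes kept from 2 single-cell RNA libraries. They were picked by their own transcripts. A barcode entered with at least 800 unique molecular identifiers (UMIs, each counting 1 captured RNA molecule), at least 200 genes and at most 10% mitochondrial UMIs. It also needed 2 or more UMIs of Cd3d, Cd3e and Cd3g together, 2 or more of Cd8a and Cd8b1 together, and no more than 1 of the B cell genes Cd79a, Cd79b and Ms4a1. The last condition was a sum of at least 3 UMIs over 7 rule genes, Cxcr3, Cxcr6, Il2rb, Cd160, Klrc1, Gzmm and Xcl1. CD8 T cells with a sum of at most 1, 1617 in all, are called naive-like here, and the 113 cells with a sum of exactly 2 belong to neither group.

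The blood came from female C57Bl/6 mice aged 10 weeks. One library was made from mice with the genotype MvkV377I/del91, called mutant below, which carry 2 altered alleles of mevalonate kinase, the enzyme that phosphorylates mevalonate on the route to sterols and isoprenoids. The other was made from Mvk+/+ mice, called wildtype. Each library pooled blood of 3 mice, and DAPI- Ter119- cells (alive, without the erythroid antigen) were sorted after Ficoll separation, so genotype, pool and library are the same split and cannot be told apart. With 1 library per genotype, no comparison of genotypes is tested. Every interval below is an exact 95% interval that covers counting error only.

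The libraries held 14513059 and 15385199 UMIs (mutant and wildtype, in this order throughout), with 4190 and 5225 barcodes kept, 766 and 1113 of them CD8 T cells. The memory-like cells numbered 42 and 107 and carried 135420 and 413266 UMIs, with a median of 3308.5 and 3668 UMIs a cell against 2415 and 2543 in naive-like cells. The libraries shared 28 kept barcodes, and 0 mutant and 1 wildtype memory-like barcodes occurred in the other library. Levels are in CPM, which is UMIs per 1000000 UMIs summed over the cells of a group. RNA floating free of cells, read from barcodes with at most 20 UMIs, was estimated from B cell genes to make up 10.0% and 7.16% of the UMIs of memory-like cells and 11.6% and 8.03% of those of naive-like cells.

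After an infection or a strong stimulus, naive CD8 T cells expand and leave memory cells behind. Similar cells also arise without infection, driven by cytokines. Memory cells in mice are known for the receptor chain Il2rb, through which interleukin-15 and interleukin-2 signal, for the T-box transcription factors Eomes and Tbx21, and for the chemokine receptor Cxcr3, which leads cells to sites of interferon-induced chemokines. They hold ready chemokine and granzyme transcripts, and part of them carry receptors shared with natural killer (NK) cells, which read MHC class I molecules.

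The 7 rule genes were spread over the cells, and no single one defined them. Il2rb, the receptor chain just named, had a UMI in 28 of 42 mutant and 56 of 107 wildtype memory-like cells. Cxcr3 was seen in 24 and 56 cells, and Gzmm, a granzyme of cytotoxic lymphocytes, in 23 and 51. Klrc1, which encodes the inhibitory receptor NKG2A, was seen in 8 and 41 cells, Cxcr6, a chemokine receptor of tissue-seeking T cells, in 10 and 34, Cd160, a surface receptor of the immunoglobulin family, in 12 and 24, and the chemokine Xcl1 in 8 and 35. A single rule gene carried the sum in 4 mutant and 9 wildtype cells. The sum reached 5 or more in 14 and 46 cells, and its highest values were 26 in a mutant cell of 2831 UMIs and 17 in a wildtype cell.

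Levels of the rule genes were 310 and 208 CPM for Cxcr3, 332 and 266 for Gzmm, 295 and 244 for Il2rb, 185 and 157 for Cxcr6, 170 and 96.8 for Cd160, 155 and 211 for Klrc1 and 126 and 111 for Xcl1. The rule set these values, so they describe the choice and are no result. B-like cells give a rough guide to background: 2 of 973 (0.206%) and 3 of 859 (0.349%) reached a sum of 3, at a median of 1576 and 1566 UMIs. Memory-like cells were deeper, with medians of 3308.5 and 3668 UMIs, and the background of the sum at that depth was not measured. After every cell was thinned to 800 UMIs, a Cxcr3 UMI was left in 28.6% and 11.2% of memory-like cells, 1.02% and 0.645% of naive-like cells and 0.308% and 0.582% of B-like cells.

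The promoters of several of these genes carry the core letters of the site that T-box factors bind, TCACAC, or GTGTGA when read on the other strand. In RefSeq promoter sequences of build GRCm38.p6, taken from 250 bases before to 50 bases after each gene's start, these letters stood in 4 of the 6 rule genes that have an entry (Cxcr3, Cd160, Gzmm and Xcl1) in 13% of the 2915 genes with an entry that were measured in these cells, and in 16.4% of all 27025 genes. Among the 15 genes highest in memory-like over naive-like cells, named further down, 4 of the 12 with an entry held them, Cxcr3 and Gzmm being counted again here, and 1 of 11 among the 15 lowest. The stretches around a match are shown for the rule genes and for S100a6 and Gzmb, which are among the genes highest in these cells, with the matching letters in capitals and each sequence read along its gene. Cd160 and Gzmm have a second listed start each, and the window of 1 start is shown. A gene was counted when any of its listed starts held the letters. For Gzmm, the promoter chr10:79688770-79689069, which spans the annotated start of the gene, held 0 matches. The Gzmm window shown belongs to the other listed start, which lies inside the gene. A match describes these letters and is no evidence of binding.
Cxcr3 (chrX:101734356-101734397, minus strand): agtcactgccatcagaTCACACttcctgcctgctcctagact
Cd160 (chr3:96829512-96829557, minus strand): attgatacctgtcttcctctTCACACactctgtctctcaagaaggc
Gzmm (chr10:79693618-79693663, plus strand): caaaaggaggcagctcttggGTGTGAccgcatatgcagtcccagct
Xcl1 (chr1:164935684-164935729, minus strand): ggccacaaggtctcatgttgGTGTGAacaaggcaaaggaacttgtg
S100a6 (chr3:90612813-90612858, plus strand): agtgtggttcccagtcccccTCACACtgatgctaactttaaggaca
Gzmb (chr14:56262324-56262369, minus strand): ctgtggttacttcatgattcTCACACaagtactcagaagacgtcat

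Markers outside the rule are given here beside the label of a memory-like CD8 T cell. Ly6c2 and Ikzf2 were given with the rule, with earlier results of these data known, so they are no independent check of the label. Ly6c2, a surface antigen carried by memory CD8 T cells in mice, stood at 1041 and 1132 CPM against 436 and 412 in naive-like cells. Cd44, the classical adhesion marker of antigen-experienced T cells, gave 8 and 36 UMIs, which is 3.34 (1.33 to 7.43) and 3.98 (2.54 to 6.18) times the naive-like level. Eomes gave 7 and 30 UMIs, 3.49 (1.28 to 8.25) and 7.17 (4.08 to 12.7) times the naive-like level, while Tbx21 gave 1 and 9 UMIs. Ikzf2, a zinc finger factor, was thin, with 5 and 25 UMIs and ratios of 1.75 (0.537 to 4.46) and 3.32 (1.95 to 5.53). Of its 5 mutant UMIs, 3 lay in the 4 cells with no Cd8b1 UMI described further down. The other 38 mutant cells held 2, which is 16.1 CPM. In the mutant library the label therefore rests on few UMIs for Eomes, Cd44 and Ikzf2, and the interval of Ikzf2 there includes 1.

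Markers of other T cell lineages had few UMIs. Zbtb16, the factor of natural killer T cells, and Foxp3, the factor of regulatory T cells, had 0 UMIs in both libraries. Cd4 had a UMI in 0 mutant and 1 wildtype memory-like cells. The summed level of a list of innate-like T cell genes was 59.1 and 19.4 CPM against 21.7 and 10.9 in naive-like cells, and Cd163l1, a scavenger receptor of gamma delta T cells, had UMIs in 3 mutant and 2 wildtype cells. The part of such cells in the results was not tested. The CD3 and CD8 genes were kept by the rule and stayed near the naive-like level, with Cd3d at 1174 and 1130 CPM against 1169 and 1155, and Cd8b1 at 1241 and 1106 CPM against 1293 and 1326. None of the 14 genes on a T cell identity list, among them the kinases Lck and Zap70, was 2-fold apart in both libraries. That list includes the CD3 and CD8 genes of the rule. Over all 3769 measured genes, only 0.982% were higher and 0.557% lower by this limit with intervals off 1. The count of 0 is thus near the share of any genes.

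Cells just inside and just outside the threshold were alike in some genes and apart in others. Ccl5, a chemokine stored in memory CD8 T cells, stood at 5318 and 7119 CPM in the 37 and 76 cells with a sum of 2, and at 3255 and 9078 CPM in the 15 and 38 cells with a sum of 3. Lef1, a transcription factor of naive T cells, was at 351 and 297 CPM with a sum of 2 and at 200 and 242 CPM with a sum of 3. Gzma, a granzyme, was at 1265 and 1079 CPM with a sum of 2 and at 59.9 and 424 CPM with a sum of 3. Along the whole range of sums, Ccl5 went from 901 and 950 CPM at a sum of 0 to 12920 and 10250 CPM at 5 or more, and Lef1 from 577 and 582 CPM to 69.1 and 138 CPM. The group is cut from a sum, with 113 cells just below the limit, and whether its cells form a separate type was not tested.

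**Figure D1:**
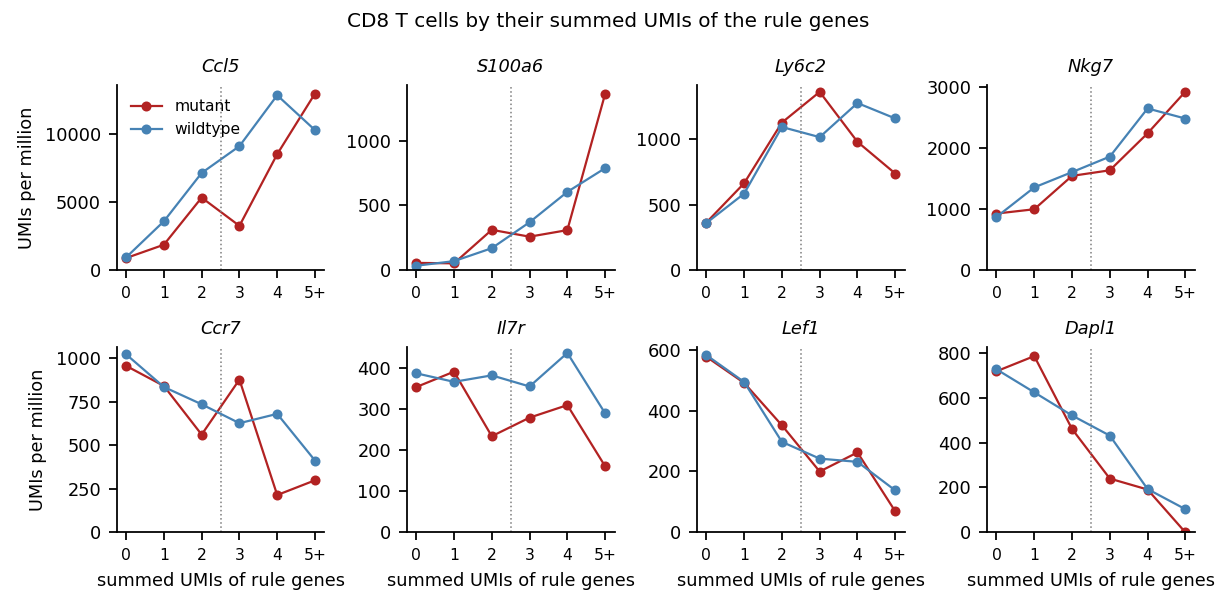
Levels of 8 genes (vertical axis, CPM) in CD8 T cells grouped by their summed UMIs of the 7 rule genes (horizontal axis, with 5+ for 5 or more). Red is the mutant and blue the wildtype library, and the dotted line marks the limit for memory-like cells: Ccl5 and Nkg7 are higher and Lef1 and Dapl1 lower at 5+ than at 0, with a dip of mutant Ccl5 at 3.

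Compared with naive-like cells, memory-like cells carried more of the chemokines Ccl5 and Ccl4, the granzymes Gzma and Gzmb and the integrin chains Itgb1, Itgal and Itgb2, and less Lef1, Dapl1 and Igfbp4, which are known from naive T cells. A gene is called higher or lower here when it was at least 2-fold apart with an interval off 1 in the same direction in both libraries, among 3769 genes with at least 50 UMIs in each. The 50 UMIs were counted over both cell groups of a library. This held for 37 genes higher (0.982%) and 21 lower (0.557%), while the median gene differed by 0.09 and 0.07 on the log2 scale. Both groups were cut from the same measurements and differ in depth, so the numbers describe the groups and test nothing.

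Of the 11 cytotoxic granule genes measured, 6 were called higher and 0 lower, against 0.982% and 0.557% over all measured genes. Gzmm is among the 6 by the rule itself. The others were Gzma and Gzmb, Nkg7, a membrane protein of cytotoxic granules, Cst7, an inhibitor of granule cathepsins, and the lysosomal protease Ctsd. Nkg7 stood at 2237 and 2316 CPM against 947 and 987, a ratio of 2.36 and 2.35. Gzma was at 591 and 968 CPM against 134 and 219, a ratio of 4.41 (3.38 to 5.71) and 4.42 (3.87 to 5.04), and Gzmb at 192 and 196 CPM against 14.8 and 21.1, a ratio of 13 (7.23 to 23.2) and 9.31 (6.49 to 13.4). Gzmb came from few cells, 8 of 42 and 21 of 107. In the mutant library, 21 of its 26 UMIs lay in 4 cells with no Cd8b1 UMI. Without these 4 cells, its mutant memory-like level was 40.1 CPM. Perforin, Prf1, was hardly seen, with 3 and 9 UMIs, so these cells carried granzyme and Nkg7 transcripts at a level of perforin too low to compare.

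Both granzymes also lay in the free RNA, Gzma at 508 and 2445 CPM and Gzmb at 53.1 and 237 CPM. At 800 UMIs a cell, Gzma was found in 16.7% and 23.4% of memory-like cells, in 4.66% and 13.2% of naive-like cells and in 4.01% and 17.3% of B-like cells, which should lack it. In the wildtype library, the naive-like share of cells with Gzma is therefore at background. With free RNA subtracted, the Gzma ratio was 7.02 and 34.0, the latter against a naive-like level close to 0. Without the cells lacking Cd8b1, described further down, the mutant ratio was 2.82.

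Ccl5 was the most abundant of the genes called higher. It stood at 7975 and 10354 CPM in memory-like against 1137 and 1564 CPM in naive-like cells, a ratio of 7.02 (6.51 to 7.56) and 6.62 (6.34 to 6.91). At 800 UMIs a cell, a Ccl5 UMI was left in 83.3% and 89.7% of memory-like cells, 24.6% and 38.6% of naive-like cells and 20.6% and 40.6% of B-like cells, and the free RNA held it at 1826 and 5767 CPM. Ccl4, a chemokine that attracts immune cells, was at 207 and 186 CPM with ratios of 11.7 (6.76 to 20.2) and 2.29 (1.74 to 2.99). Ifng, the interferon of memory T cell responses, gave only 1 and 10 UMIs. Fasl, the death ligand, gave 7 and 31 UMIs, 9.07 and 8.05 times the naive-like level.

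Of 16 homing and egress genes measured, 5 were called higher, against 0.982% over all measured genes. The 5 were Cxcr3 and Cxcr6 by the rule itself, and the integrin chains Itgal, Itgb2 and Itgb1. Itgal and Itgb2 pair as LFA-1, which holds T cells on vessel walls, and were 2.18 and 2.12 times and 2.17 and 2.02 times the naive-like level. Itgb1, the partner chain of the VLA integrins, was at 133 and 256 CPM against 51.3 and 53.9, a ratio of 2.59 (1.47 to 4.33) and 4.76 (3.65 to 6.19). Ccr7, the receptor that leads T cells into lymph nodes, was at 487 and 532 CPM, 0.524 (0.403 to 0.671) and 0.543 (0.471 to 0.624) times the naive-like level. Ccr7 was thus lower by less than the 2-fold limit. S1pr1, the receptor for exit into blood, was 0.571 and 0.608 times the naive-like level.

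Of 12 measured genes of S100 proteins, galectins, annexins and their partners, 4 were called higher and 0 lower, against 0.982% higher over all measured genes, and 8 did not pass. S100a6, a small calcium-binding protein, was at 628 and 619 CPM against 57.0 and 44.2, or 11 (8.15 to 14.9) and 14.0 (11.2 to 17.7) times, and by the smaller of its ratios it came first among called genes outside the rule. Lgals1, the secreted lectin galectin-1, was at 1041 and 1026 CPM against 294 and 274, and Anxa2, a membrane-binding annexin, at 170 and 186 CPM against 31.9 and 31.2. Ahnak, a very large scaffold protein, was 3.97 and 3.24 times the naive-like level. For S100a6, 31.0% and 30.8% of memory-like cells kept a UMI at 800 UMIs, against 12.6% and 7.92% of B-like cells. The rest of the 15 highest genes by the fixed rule were Ctla2a, a protease inhibitor of activated T cells, at 4.32 and 8.6 times the naive-like level, the membrane protein gene Itm2a at 4.88 and 3.9 times, and Efhd2, another calcium-binding protein, at 3.27 and 2.82 times.

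Receptors shared with NK cells were present at low counts. Klrk1, which encodes the activating receptor NKG2D, was called higher, as 1 of the 2 genes of a list of 17 that were measured in both libraries, at 244 and 244 CPM against 16 and 24.3. Klrd1, the partner chain of NKG2A, was carried by naive-like cells too, at 313 and 337 CPM, and its memory-like ratio was 1.37 (1.03 to 1.80) and 1.28 (1.08 to 1.5). Klrc2, an activating relative of Klrc1, gave 10 and 48 UMIs against 5 and 27 in the many more naive-like cells, a ratio of 25.9 and 10.6. Klra7, a member of the Ly49 receptors, gave 12 and 55 UMIs with ratios of 11.1 and 6.32. In the mutant library, 4 cells with no Cd8b1 UMI, described further down, held 7 of these 12 UMIs, 13 of 33 Klrk1 and 21 of 58 Klrd1 UMIs. Without them, the mutant levels were 40.1 CPM for Klra7, 161 for Klrk1 and 297 for Klrd1. How reads shared between near-identical Klra genes, or between Ly6c1 and Ly6c2, were counted is not given in the sources used here, so the values of single members of these families are uncertain.

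Markers that define NK cells were also above the naive-like level, and their part in these results was not tested except where a value is given. All 10 genes on that list had UMIs in both libraries, with a summed level of 1344 and 1561 CPM in memory-like against 237 and 489 CPM in naive-like cells, much of it Gzma. Fcer1g, a signalling adaptor of NK cells, was at 295 and 235 CPM, and Ncr1, the NK receptor NKp46, gave 7 and 16 UMIs. The 4 mutant cells with no Cd8b1 UMI held 19 of 40 mutant Fcer1g UMIs and all 7 of Ncr1, and Fcer1g was at 169 CPM in the other mutant cells. Cells with 2 or more UMIs of Ncr1, Klrb1c, Tyrobp and Fcer1g numbered 9 of 42 (21.4%) and 29 of 107 (27.1%), against 2.04% and 9.14% of naive-like and 6.06% and 11.1% of the shallower B-like cells. Without such cells, 23 genes in place of 37 were called higher. In memory-like cells, a doublet score above 0.2 was found in 0 of 42 and 4 of 107.

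Among transcription factors, 1 of 16 measured was called higher and 1 lower, against 0.982% and 0.557% over all 3769 measured genes. Single calls among 16 are no result about that list. Id2, a repressor that favours effector and memory cells, was at 347 and 327 CPM against 133 and 148, a ratio of 2.61 (1.87 to 3.59) and 2.20 (1.80 to 2.69). Lef1 was at 177 and 189 CPM against 556 and 561, a ratio of 0.319 (0.203 to 0.477) and 0.336 (0.264 to 0.422). Its relative Tcf7, which keeps naive and long-lived memory cells, was 0.572 and 0.740 times the naive-like level, and Klf2, which drives S1pr1, 0.707 and 0.736 times. Of 16 cytokine receptor genes measured, 3 were called higher, against 0.982% over all measured genes. The 3 were Il2rb by the rule, Il18r1, the receptor for interleukin-18, at 73.8 and 60.5 CPM, and Il10rb at 118 and 99.2 CPM. Il7r, the receptor for the survival cytokine interleukin-7, was at 251 and 339 CPM against 363 and 383.

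Of 17 genes of naive T cells measured, 3 were called lower and 0 higher, against 0.557% and 0.982% over all measured genes. Dapl1 stood at 148 and 225 CPM against 734 and 703, a ratio of 0.201 (0.122 to 0.312) and 0.320 (0.257 to 0.395). Igfbp4, a binding protein of insulin-like growth factors, was at 36.9 and 38.7 CPM against 162 and 166, and Lef1 was the third. The 15 lowest genes by the fixed rule also included Ifngr2, a chain of the interferon-gamma receptor, with 0 and 4 UMIs in memory-like against 76 and 108 in naive-like cells, and Trib2, a pseudokinase, with 0 and 6 UMIs against 84 and 127. Ramp1, a receptor-modifying protein, was 0.226 and 0.291 times the naive-like level, Rgcc, a cell cycle regulator, 0.312 and 0.256 times, Sepp1, the selenium carrier selenoprotein P, 0.179 and 0.363 times, and Dusp10, a phosphatase of stress kinases, 0.319 and 0.429 times. Of the erythroid list, 4 of 4 measured genes were called lower, all of them globins, and Hba-a1 was at 517 and 33.9 CPM against 1143 and 282. In the free RNA, Hba-a1 stood at 11369 and 690 CPM, and the part of free RNA in this difference was not tested.

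**Figure D2:**
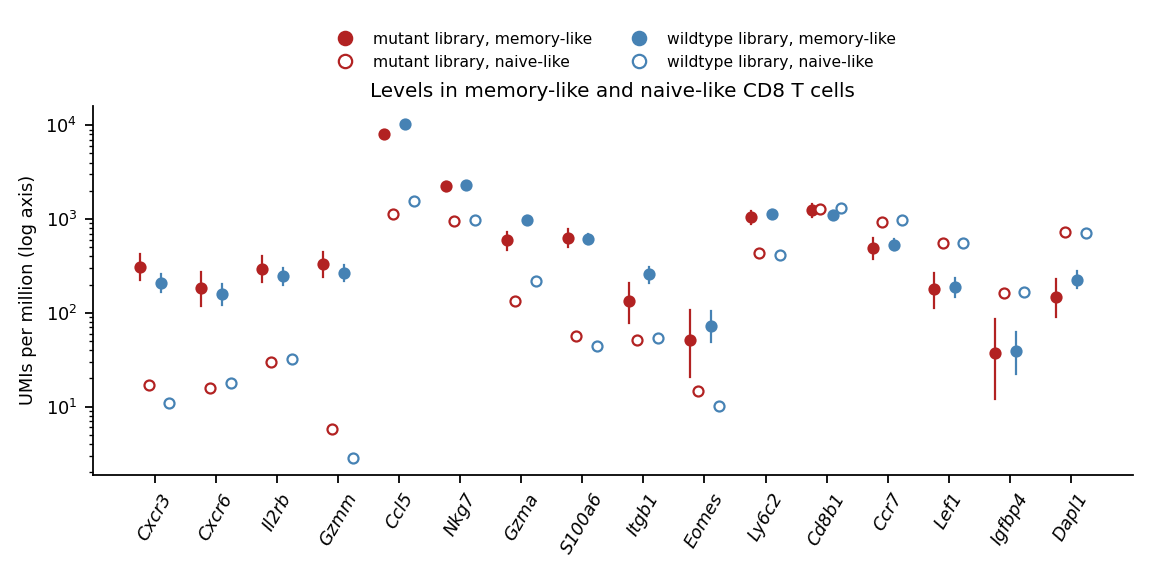
Levels (CPM, log axis) of 16 genes in memory-like cells (filled points, with exact 95% counting intervals) and naive-like cells (open points) of the mutant (red) and wildtype (blue) library. Filled points stand above open ones from Cxcr3 to Ly6c2 and below them from Ccr7 to Dapl1, apart from Cd8b1, where they lie close together.

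**Figure D3:**
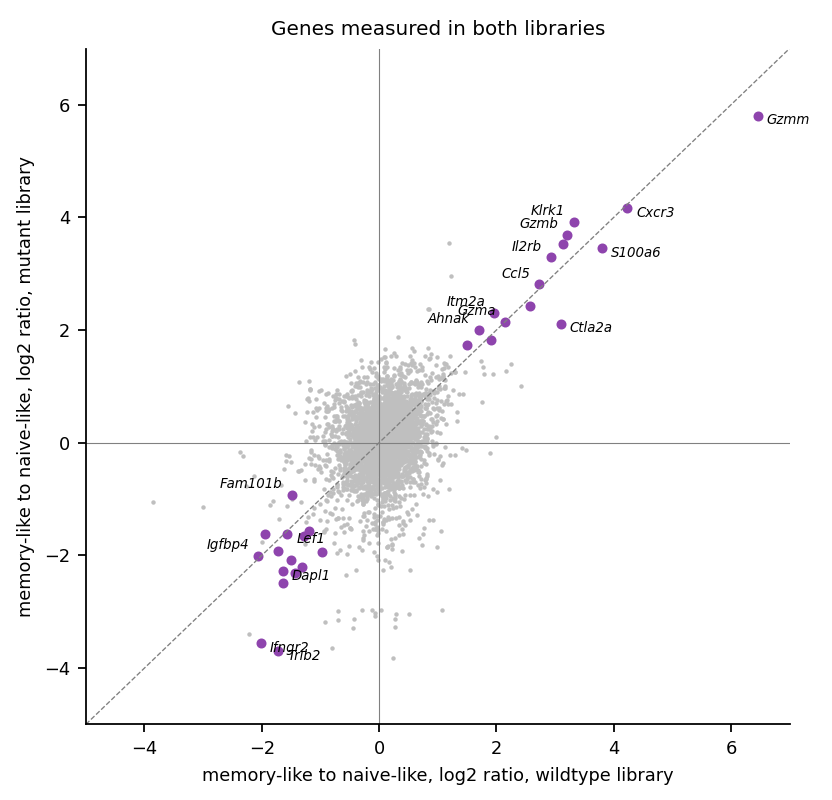
Log2 ratio of memory-like to naive-like cells in the wildtype (horizontal axis) and mutant (vertical axis) library for genes with at least 50 UMIs in each, 0.5 UMI added. Purple points are the 15 highest and 15 lowest genes by the rule for named genes, part of them with their names, and the dashed line marks equal ratios: Gzmm, Cxcr3 and S100a6 lie at the upper right in both libraries, and Ifngr2 and Trib2, with 0 mutant UMIs, at the lower left.

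The memory-like cells were not uniform. Divided by the receptors of the rule, 57 cells held a Cxcr3 but no Cxcr6 UMI, 21 held Cxcr6 but not Cxcr3, 23 held both and 48 held neither, over both libraries. Id2 was at 409 CPM in cells with Cxcr6 alone and at 721 CPM with both receptors, against 213 CPM with Cxcr3 alone and 217 CPM with neither, and 1 wildtype cell held 21 of the 57 Id2 UMIs of its library's cells with both. Eomes was at 13.6 CPM with Cxcr6 alone and 20.3 CPM with both receptors, from 1 and 2 UMIs. It was at 72.6 CPM with Cxcr3 alone and 112 CPM with neither, from 15 and 19 UMIs. In the mutant library, these last 2 classes were at 69.4 and 62.2 CPM, from 4 and 3 UMIs, and in the wildtype library at 73.9 and 131 CPM. Among genes known from naive T cells, Tcf7 was at 136 CPM with Cxcr6 alone and 102 CPM with both receptors, against 266 CPM with Cxcr3 alone and 211 CPM with neither. Lef1 and Dapl1 did not follow Tcf7. In the same order, Lef1 was at 273, 162, 155 and 200 CPM and Dapl1 at 396, 305, 107 and 188 CPM.

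These classes were formed after the data were seen, from genes of the rule. Gzmb, at 464, 426, 43.6 and 129 CPM in that order over both libraries, came from few cells. A single cell held 22 of the 33 Gzmb UMIs of wildtype cells with both receptors, 1 held 12 of 21 with Cxcr6 alone, and 1 held all 13 of the mutant cells with Cxcr6 alone. Rgs1, a regulator of chemokine receptor signals that is known from tissue-resident T cells, was at 600 CPM in cells with Cxcr6 alone, at 447 CPM in those with both receptors, at 242 CPM with Cxcr3 alone and at 158 CPM with neither. In the wildtype library alone, it was at 508, 197, 161 and 172 CPM in the same order, while 1 of the 6 mutant cells with both receptors held 18 of their 28 Rgs1 UMIs and 1 wildtype cell with Cxcr6 alone 17 of 31. A missing UMI of a receptor does not show that a cell lacks it, since Cxcr3 and Cxcr6 gave few UMIs a cell.

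A small subset had no Cd8b1 UMI and entered through Cd8a alone: 4 of 42 (9.52%) mutant and 4 of 107 (3.74%) wildtype cells, against 1.75% and 1.72% of naive-like cells. Cd8b1 encodes the beta chain that conventional CD8 T cells pair with Cd8a. The 4 mutant cells held 21 of the 26 Gzmb UMIs of the mutant memory-like cells, 13 of 21 Klrc1, 12 of 23 Cd160, 20 of 35 Tyrobp and all 7 Ncr1 UMIs, together with 31 of 144 Cd3g UMIs. The 4 wildtype cells held 0 of 81 Gzmb, 1 of 87 Klrc1 and 0 of 77 Tyrobp UMIs. Other NK-type genes were above the rest there too, with Fcer1g at 545 CPM against 223 CPM in wildtype cells with Cd8b1, Klrk1 at 545 against 233 CPM and Ncr1 at 136 against 35.1 CPM, from 8, 8 and 2 UMIs. Each of these counts comes from only 4 cells.

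Cycling cells were few. Genes of DNA replication and division gave 9 UMIs in mutant and 209 in wildtype memory-like cells, and 105 and 51 of the wildtype UMIs came from a pair of cells. Only 3 wildtype and 0 mutant cells had 5 or more such UMIs. Platelet transcripts were concentrated as well, with 77 of 88 UMIs of the mutant cells in 1 cell.

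Fewer CD8 T cells of the mutant library met the rule. Memory-like cells were 5.48% (3.98 to 7.34) of mutant and 9.61% (7.95 to 11.5) of wildtype CD8 T cells, a ratio of 0.570 (0.389 to 0.822). Of all kept barcodes they were 1.0% and 2.05%, a ratio of 0.489 (0.334 to 0.706). The rule counts raw UMIs, and the share was higher in cells above 3000 UMIs in both libraries. Among cells of 2000 to 3000 UMIs it was 3.26% (14 of 429) and 2.60% (15 of 576), and among cells of 3000 to 4000 UMIs 14.0% (19 of 136) and 16.3% (45 of 276). The corresponding ratios were 1.25 (0.560 to 2.78) and 0.857 (0.473 to 1.49).

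Of the cells with at least 4000 UMIs, 6 of 47 mutant cells (12.8%) and 38 of 97 wildtype cells (39.2%) were memory-like, a ratio of 0.326 (0.113 to 0.777), and this was the only bin whose interval left out 1. Below 2000 UMIs the counts were 3 of 154 and 9 of 164, a ratio of 0.355 (0.0618 to 1.42). With cells of at least 2500 UMIs thinned to 2500, the shares were 5.14% and 8.50% and the ratio 0.605 (0.333 to 1.05). With cells of at least 1500 UMIs thinned to 1500, only 13 of 530 and 22 of 763 cells met the rule, and the ratio was 0.851 (0.394 to 1.77). At equal depth the direction was the same in both cases, but the intervals included 1, and the spread between mice is unknown.

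**Figure D4:**
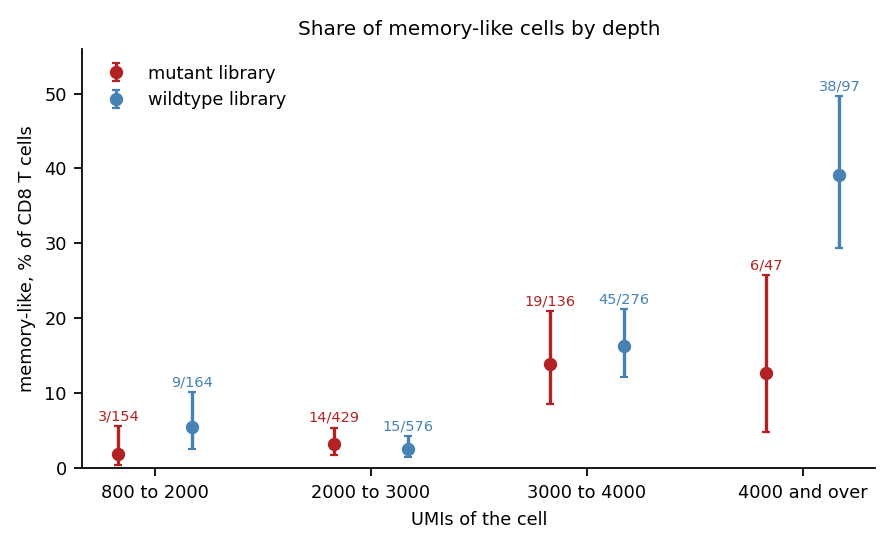
Share of memory-like cells among CD8 T cells (vertical axis, %) by the UMIs of the cell (horizontal axis), with exact 95% intervals and the counts above each point, for the mutant (red) and wildtype (blue) library. The intervals overlap below 4000 UMIs, and above it the wildtype share of 39.2% lies over the mutant share of 12.8%.

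Within the memory-like cells, most measured genes were not called between the libraries. A gene was called when it was at least 1.5-fold apart with an interval off 1, among 1330 genes with at least 50 UMIs in both libraries together. This gave 43 genes higher (3.23%) and 21 lower (1.58%) in the mutant library, with a median log2 ratio of 0.02. With an unadjusted interval for each of 1330 genes, part of these calls may come from counting error. After each cell was thinned to 800 UMIs, which left 298 genes measured, 2 of the 43 and 0 of the 21 were called again. Without 1 wildtype cell of 11198 UMIs, which held a Cd4 UMI, 13 of the 21 were called again. In naive-like cells, 120 of 5957 genes were higher and 82 lower. Of the 43 and 21 genes called in memory-like cells, 3 and 2 were called there in the same direction. The 43 include 3 globin genes. Whether the other calls are particular to memory-like cells was not tested.

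The rule set the levels of its 7 genes in both libraries, so these are not compared, although Cd160 is counted among the 43. Of the markers outside the rule, Ly6c2 had a ratio of 0.919 (0.756 to 1.11). Gzmb was at 0.980 (0.604 to 1.54) over all memory-like cells and at 0.198 (0.0625 to 0.480) without the cells lacking Cd8b1, which held 21 of its 26 mutant UMIs.

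Of 10 measured granule genes, the rule gene Gzmm among them, 1 was called lower and 0 higher, against 1.58% and 3.23% over all 1330 measured genes. A single call among 10 is no result about that list. The gene was Gzma, lower in the mutant library at 591 against 968 CPM, with a ratio of 0.610 (0.474 to 0.778). In naive-like cells the ratio was 0.611 (0.522 to 0.714), and in the free RNA the levels were 508 and 2445 CPM. Subtracting free RNA gave 0.694 (0.531 to 0.897) in memory-like cells, and leaving out the cells lacking Cd8b1 gave 0.379 (0.274 to 0.513). Among the 14 and 46 cells with a sum of 5 or more, the ratio was 1.35 (0.980 to 1.84), so the direction depended on which cells were taken. Ccl5 behaved alike, with a ratio of 0.770 (0.720 to 0.824) in memory-like and 0.727 (0.688 to 0.767) in naive-like cells, 1826 against 5767 CPM in free RNA, and 1.26 (1.15 to 1.38) at a sum of 5 or more.

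Genes higher in the mutant library by the fixed rule were led by Ppbp, a platelet chemokine, which gave 46 against 4 UMIs, 41 of the 46 in 1 cell. Ifi27l2a, an interferon-induced gene, stood at 820 against 232 CPM, a ratio of 3.53 (2.66 to 4.69), and 2.87 without its highest cell in each library. Its highest 2 mutant cells held 37 and 25 of 111 UMIs. It was the only 1 of 6 measured interferon-stimulated genes called, against 3.23% higher and 1.58% lower over all 1330 measured genes. A single call among 6 genes is no result about that list. In naive-like cells its ratio was 1.29 (1.18 to 1.41).

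Rgs1 was at 539 against 223 CPM, a ratio of 2.42 (1.76 to 3.33), and at 0.849 (0.703 to 1.02) in naive-like cells. Without the cells lacking Cd8b1, its ratio was 1.39 (0.927 to 2.04). Bbc3, which encodes the apoptosis inducer Puma, was at 214 against 87.1 CPM, a ratio of 2.46 (1.45 to 4.12), and at 1.40 (1.10 to 1.77) in naive-like cells. Il16, a cytokine precursor, had a ratio of 2.17 (1.19 to 3.86) with 0.967 (0.784 to 1.19) in naive-like cells, and Tmem123, a surface mucin-like protein, one of 2.38 (1.35 to 4.15) with 1.03 (0.818 to 1.30). The other named genes, Ppig, Lbh, Sdcbp and Tmem167, lay between 2.11 and 2.25.

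Genes lower in the mutant library began with Stmn1, a microtubule regulator of dividing cells, with 4 against 57 UMIs and a ratio of 0.214 (0.0564 to 0.579). Of its 57 wildtype UMIs, 22 and 16 came from a pair of cells. Hmgn2, a chromatin protein, gave 12 against 72 UMIs, 25 of them in 1 wildtype cell. Itgb1 was at 133 against 256 CPM, a ratio of 0.518 (0.296 to 0.859) with 0.952 (0.721 to 1.25) in naive-like cells, and 0.590 without its highest cell in each library. Cct5, a subunit of the chaperonin that folds actin and tubulin, was at 111 against 244 CPM, a ratio of 0.453 (0.245 to 0.784). Cd48, an adhesion partner of NK-type receptors, was also called, at 162 against 281 CPM, and Rbms1, Sept9, Ociad1, Ccdc124, Ptp4a2 and Tbrg1 had ratios from 0.390 to 0.516.

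The pathway of the mutated enzyme was barely visible in these cells. Mvk gave 2 mutant and 4 wildtype UMIs. Of 29 genes of mevalonate and sterol synthesis, 0 reached 50 UMIs, and their summed level was 480 against 426 CPM, so no difference in single genes was detectable at this depth. Of 10 measured small GTPases that carry the isoprenoid products of the pathway, 0 were called in either direction. Over all 1330 measured genes, 3.23% were called higher and 1.58% lower, so 0 of 10 is near the share of any genes. Rac2, a GTPase of lymphocyte migration, had a ratio of 0.947 (0.804 to 1.11), Rhoa one of 1.01 (0.701 to 1.43) and Rap1a one of 0.784 (0.498 to 1.20). Globin genes were higher in the mutant library throughout, with Hba-a1 at 15.3 times in memory-like and 4.05 times in naive-like cells and at 11369 against 690 CPM in free RNA.

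**Figure D5:**
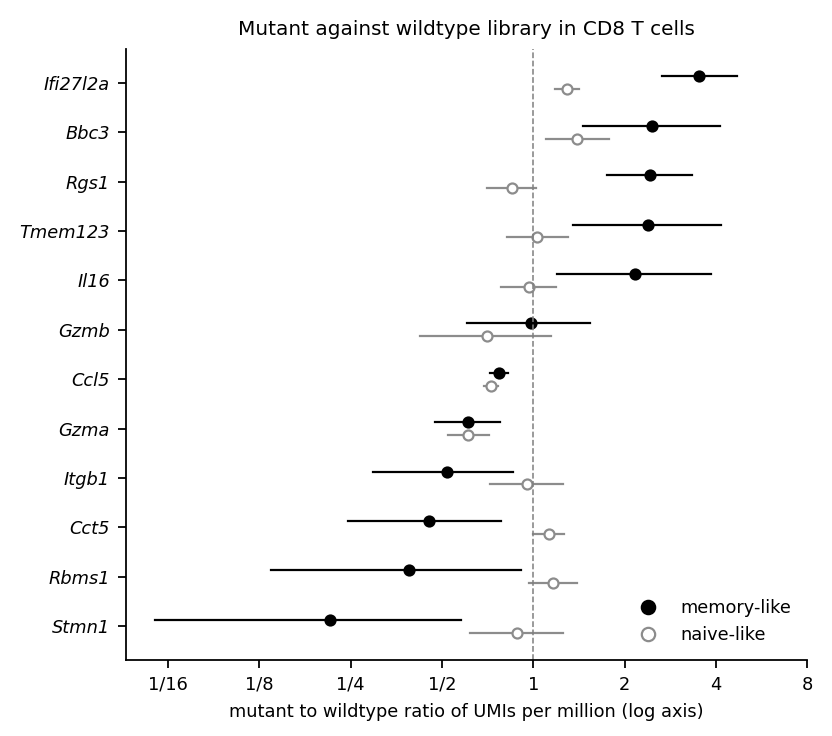
Mutant to wildtype ratio (horizontal log axis) of 12 genes in memory-like (black) and naive-like (open) CD8 T cells, with exact 95% counting intervals. Ifi27l2a and Rgs1 lie above 1 and Itgb1, Cct5, Rbms1 and Stmn1 below 1 in memory-like cells, while Gzma and Ccl5 lie below 1 in both cell groups.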

How the data were processed

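The deposited files held raw UMI counts of 27998 genes for 737280 barcodes per library, and per the submitters' processing notes the authors used Cell Ranger 2.1.1 and the build mm10. No cell annotation was used. Counts of the cells of a group were summed per library, scaled to CPM, and compared as ratios with exact conditional 95% intervals; shares carry Clopper-Pearson intervals. With 1 library per genotype there is no test, and p-values are not given. Doublets were scored with Scrublet (in scanpy 1.11.5) and kept, with their removal as an alternative. Computation used numpy 2.4.6, scipy 1.17.1 and pandas 2.3.3, and the ratios and intervals were checked on simulated counts with known folds. The simulated counts held counting error only, which is what the intervals assume. The check therefore cannot show how the intervals perform where UMIs are concentrated in few cells.

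Members and gene lists (28) were chosen with earlier results of these data known. Named genes were the rule genes, the given markers, Mvk, list members with the most UMIs or a call, the 15 highest and 15 lowest genes in memory-like over naive-like cells by the smaller of the log2 ratios (0.5 UMI added), and the 10 highest and 10 lowest in mutant over wildtype, leaving out ribosomal, mitochondrial, haemoglobin, receptor and provisionally named genes. Sequences came from RefSeq, GRCm38.p6, whose chromosome numbering is that of mm10.

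Alternatives changed the UMI, mitochondrial and rule limits, the measured minimum, the scaling, free RNA subtraction, thinning, and the removal of doublets, Cd4-positive and NK marker-positive cells. Leaving out cells with no Cd8b1 UMI or the highest cell of each gene, and thinning to 2500 UMIs, were added after seeing the data.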

Additional observations from a re-analysis of the deposited data

Results flagged for a closer look

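The memory-like to naive-like ratio of Ifi27l2a, an interferon-induced gene, pointed in opposite directions in the 2 libraries, at 1.48 in mutant and 0.541 in wildtype cells, each with an interval off 1. The difference was not tested, since each genotype has 1 library, and 37 and 25 of the 111 mutant UMIs came from a pair of cells. Fnta, the alpha subunit shared by the enzymes that attach isoprenoids to proteins, had a ratio of 0 in mutant cells, with 0 UMIs against 50 in naive-like cells, and of 2.07 in wildtype cells, with 17 against 49 UMIs. This difference was not tested either, and the upper limit of the mutant ratio was 0.992. These were the only 2 genes with opposite intervals among the 3769 measured in both libraries.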

How the results depend on the processing

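Counts of genes past the limits depended most on depth and on the number of UMIs a gene needed. With a minimum of 20 UMIs, the mutant library had 84 higher and 49 lower genes and memory-like cells 61 higher genes, and with 200 UMIs 4, 3 and 9, with 12 lower in memory-like cells. With each cell thinned to 800 UMIs, 298 genes were measured between the libraries, and 9 were called higher and 8 lower in the mutant library. Only 2 of these 9 and 0 of these 8 were among the 43 and 21 called without thinning. In memory-like cells, 10 were called higher and 5 lower. Applying the rule to cells thinned to 1500 UMIs gave 3 higher and 11 lower in the mutant library, with 0 and 0 among the 43 and 21. It gave 14 and 3 in memory-like cells, with shares of 2.45% and 2.88% and their ratio at 0.851. Removing cells with 2 or more NK marker UMIs gave 24 higher in the mutant library, 23 higher in memory-like cells and a wildtype share of 7.92%. Removing cells with a Cd4 UMI took out 1 memory-like cell, the deepest of the wildtype library with 11198 UMIs. It gave 13 lower in the mutant library, all of them among the 21, so the other genes called lower depended on that cell. A sum of at least 2 gave shares of 10.3% and 16.4%, and of at least 5 1.83% and 4.13%. Of the 43 and 21 genes, 17 and 6 were called again at a sum of at least 2, and 8 and 5 at a sum of at least 5. Ratios reversed as follows, and the causes were not tested. With the rule on cells thinned to 1500 UMIs, mutant to wildtype ratios were 0.846 for Bbc3, 1.69 for Cd48, 1.30 for Gzma and 0.923 for Ifi27l2a, and memory-like to naive-like ratios 1.11 for Actn2 in the mutant and 1.11 for Asap1, 0.667 for Fcer1g, 1.18 for Tcf7 and 0.634 for Tyrobp in the wildtype library. At a sum of at least 5, Ccl5 was at 1.26 and Gzma at 1.35. Without the cells lacking Cd8b1, Cd160, a rule gene, was at 0.978 in mutant over wildtype and Klrd1 at 0.949 in memory-like over naive-like mutant cells. Without NK marker-positive cells, Klrd1 was at 0.894 in the mutant, and Fcer1g at 0.867 and Tyrobp at 0.772 in the wildtype library. Under the other settings for which gene ratios were computed, no ratio of a named gene with an interval off 1 changed direction. No paired analysis was possible because each genotype has 1 library. With 42 mutant cells and 135420 UMIs, single genes of low level could not be compared.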
